A study of Homo sapiens with 12 samples.

Results

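Interferon-stimulated genes are the genes a cell switches on after it senses interferon or viral nucleic acid. The set described here holds 44 human genes, chosen by name from the classical response to type I interferon and found by symbol in the GENCODE 29 annotation of the build GRCh38. All 44 were listed among 58243 human gene identifiers, and 37 of them were among the 18628 human genes with enough counts to be tested. The comparison asks whether inhibition of CDK4 and CDK6, the kinases that drive cells from G1 into S phase, raises this response in tumour cells grown in an animal.

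RNA was sequenced from 12 xenograft tumours of MCFDCIS, a human breast cell line whose xenografts resemble ductal carcinoma in situ. Cells were injected under the skin of Athymic Nude mice, and tumours were left to establish for 2 weeks. The first group of 3 tumours was taken after 2 weeks of palbociclib, a CDK4/6 inhibitor given each day by oral gavage at 50 mg per kg, and is called palbociclib at the end of treatment. The second, vehicle at the end of treatment, was taken after 2 weeks of vehicle. The palbociclib recovery and vehicle recovery groups, also of 3 tumours each, had the same 2 weeks of palbociclib or vehicle and then a period of recovery of unstated length. All tumours derive from the same cell line, and the nude host lacks mature T cells. The labels do not say that the tumours of a group came from different mice, so a p-value speaks only for the spread between the tumours measured.

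Human counts per library ran from 6613880 to 12352064, and mouse genes, the host part of each tumour, took 14.2% to 25.4% of gene counts. Epithelial markers were abundant in every library, with a summed level of 6959 to 11016 CPM (human counts scaled to the size of each library). Among 12 human leukocyte markers the sum was 12.6 to 21.2 CPM, nearly all of it from CD14 and CSF1R, while CLEC4C, which defines plasmacytoid dendritic cells, was at 0 in all 12 libraries. Human endothelial markers were not near 0, with a sum over 4 genes of 51.9 to 141 CPM. The sum over 6 human fibroblast and pericyte markers was 12.4 to 70.9 CPM. The source of these counts was not tested. Vehicle recovery library 2 stood apart from the others, with a score of 113.4 on principal component 1 of the human genes against -37.6 to 14.2 for the other 11. The mitochondrial share of human counts was 5.32% and 11.2% in libraries 2 and 3 of vehicle at the end of treatment, against 0.674% to 2.64% in the others.

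The interferon response works as a relay. RNA sensors such as RIG-I (gene DDX58) and MDA5 (gene IFIH1) detect viral RNA and trigger the release of interferons, which bind receptors on the same or neighbouring cells and activate the kinases JAK1 and TYK2. A complex of transcription factors that includes STAT2 and IRF9 then binds the interferon-stimulated response element, or ISRE, in the promoters of antiviral effector genes. In cancer cells the same programme can be switched on by the cell's own nucleic acids, for example when loss of DNA methylation lets endogenous retroviruses be transcribed, and DNMT1 and its partner UHRF1 maintain that methylation through cell division.

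Promoter sequences from RefSeq on GRCh38.p14, from 250 bases before to 50 bases after the start of each gene, were matched for 34 of the 44 genes (DDX58 under its newer symbol RIGI). No entry was matched for DHX58, IRF7, IFIT2, IFITM2, OAS2, OASL, MX2, USP18, GBP2 and TRIM22. The core of the ISRE was searched as the half-site GAAA, any 2 bases (NN) and GAAA again, on both strands, overlapping matches included. It occurred in 21 of the 34 promoters (61.8%), against 3.65% of all 27305 promoters in the table. The promoters below belong to OAS3, the member that fell with palbociclib, to its neighbour OAS1, and to ISG15 and IFIT1, textbook members of the response that did not pass. Capitals mark the ISRE-like core on either strand.

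OAS3, chr12:112938224-112938523, plus strand: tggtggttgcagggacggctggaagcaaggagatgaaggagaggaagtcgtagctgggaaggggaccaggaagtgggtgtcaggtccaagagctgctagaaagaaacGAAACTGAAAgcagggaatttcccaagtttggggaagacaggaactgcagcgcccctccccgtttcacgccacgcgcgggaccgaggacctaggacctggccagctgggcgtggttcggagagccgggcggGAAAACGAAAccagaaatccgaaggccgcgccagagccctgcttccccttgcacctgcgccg
OAS1, chr12:112906712-112907011, plus strand: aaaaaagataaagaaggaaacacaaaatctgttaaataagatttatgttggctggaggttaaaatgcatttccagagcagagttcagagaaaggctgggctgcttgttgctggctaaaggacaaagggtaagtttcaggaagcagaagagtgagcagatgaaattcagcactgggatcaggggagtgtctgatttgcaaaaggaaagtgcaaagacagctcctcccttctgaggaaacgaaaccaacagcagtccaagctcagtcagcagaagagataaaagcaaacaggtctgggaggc
ISG15, chr1:1013247-1013546, plus strand: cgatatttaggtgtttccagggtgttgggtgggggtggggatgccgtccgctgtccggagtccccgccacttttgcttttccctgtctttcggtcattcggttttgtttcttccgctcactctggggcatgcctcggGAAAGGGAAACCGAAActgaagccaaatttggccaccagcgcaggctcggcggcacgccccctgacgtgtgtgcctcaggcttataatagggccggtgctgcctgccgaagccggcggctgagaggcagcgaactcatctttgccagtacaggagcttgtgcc
IFIT1, chr10:89392373-89392672, plus strand: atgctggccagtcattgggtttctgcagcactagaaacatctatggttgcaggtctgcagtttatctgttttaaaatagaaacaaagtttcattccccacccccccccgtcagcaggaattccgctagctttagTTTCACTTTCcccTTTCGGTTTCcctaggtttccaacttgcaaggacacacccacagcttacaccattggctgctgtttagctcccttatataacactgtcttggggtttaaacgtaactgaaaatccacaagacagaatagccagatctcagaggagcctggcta

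OAS3, ISG15 and IFIT1 each hold 2 ISRE-like cores in this window, and OAS1 holds 0. The search counted exact matches to those letters only. It passed over near matches such as ggaaacgaaa in the OAS1 promoter, so the 0 does not show that OAS1 lacks an ISRE. Another 2 motifs were searched after the members' results had been seen, on both strands. The gamma-activated site TTCNNNGAA, an element of the response to interferon gamma, occurred in 9 of 34 member promoters (26.5%) against 7.88% of all promoters, OAS1 among them. An E2F-like motif (TTTCCCGC or TTTGGCGC), of the kind bound by the E2F factors of the cell cycle, was searched because OAS3 fell. It occurred in 3 of 34 (8.82%), those of IFIH1, OAS3 and RSAD2, against 2.31% of all promoters. In OAS3 it shares letters with the ISRE-like core nearest the start, and in IFIH1 with another ISRE-like core. RSAD2 holds 0 such cores, and its matches run into the similar letters gcgggaaacgaaa. The E2F-like matches were therefore not separate from ISRE-like letters. A match describes letters and shows no binding.

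The level of the response in these tumours was uneven. Per length of exon and averaged over the 12 tumours, BST2, the membrane tether that holds budding virus on the cell, was highest at 74.6 CPM per kb. IFITM3, which blocks virus entry at membranes, followed at 50.5 CPM per kb and STAT2 at 18.2 CPM per kb. Of the 37 tested genes the lowest were MX1, a GTPase that traps virus particles, at 0.189 CPM per kb, and IFI44L at 0.174 CPM per kb. Exon length joined the exons of all annotated transcripts, 8616 bases for MX1 and 10240 for IFI44L but 1119 for BST2, and the order depends on it. By mean log2 CPM, without length, STAT2 was highest at 6.80 and OASL lowest at 0.48. The 7 genes with too few counts to test were MX2, HERC5, RSAD2, CMPK2, IFI27, XAF1 and EPSTI1. They held between 0 and 52 counts over all 12 libraries, with CMPK2 at 0 throughout and RSAD2, the antiviral enzyme viperin, at 52. None of the 7 exceeded 1.06 CPM in any tumour. A count of 0 allows up to 3 counts in a library, a limit that covers counting error only.

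**Figure D1:**
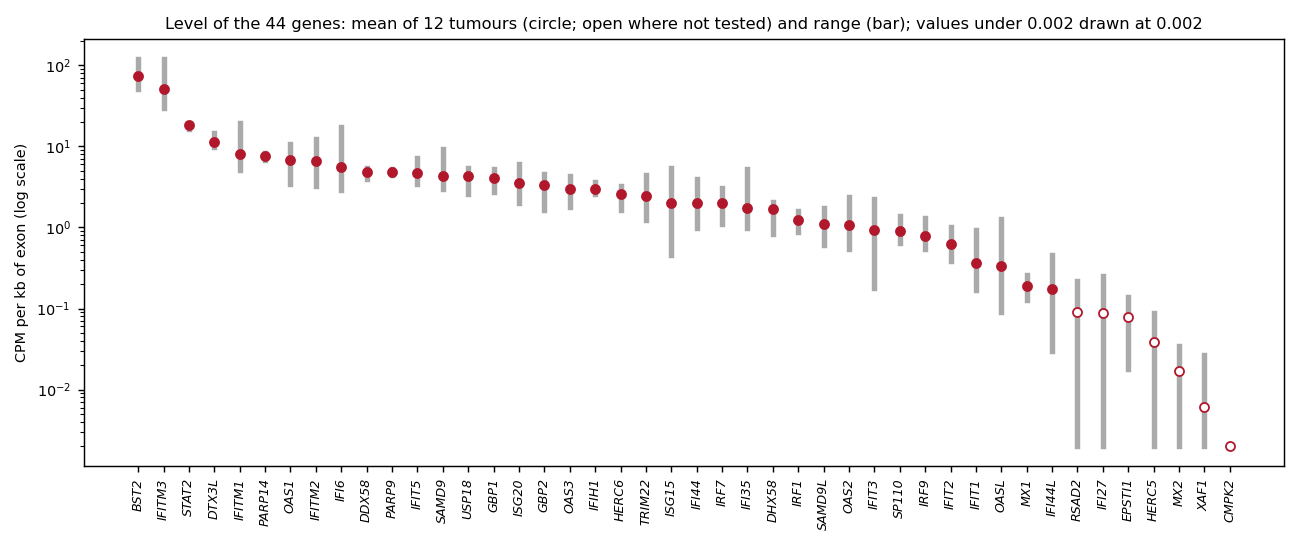
Mean level of each of the 44 interferon-stimulated genes over the 12 tumours in CPM per kb of exon (log axis), with the range over tumours as a bar; open circles are the 7 genes not tested. BST2 at 74.6 CPM per kb lies far above MX1 at 0.189 CPM per kb.

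At the end of treatment no interferon-stimulated gene passed as higher in palbociclib tumours. Of the 37 tested members 1, OAS3, fell by the quasi-likelihood test of edgeR, with p adjusted by Benjamini and Hochberg's method over all 18628 genes. Over all tested genes 1.84% passed, 0.14% higher and 1.7% lower. The members' median log2 fold change was 0.02, beside 0.00 for all tested genes, with 19 members above 0 and 18 below. At an unadjusted p under 0.05 there were 5 members of the 37 by edgeR, beside 9.86% of all tested genes. In bulk tumour RNA, fewer cells of a type and less RNA per cell cannot be told apart, which holds for every value here.

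The intervals limit how large a rise could have been missed. The upper end of the 95% interval of the log2 fold change, taken for each gene singly, lay under 1, a doubling, for 28 of the 37 members. The 9 exceptions were IFIT1, IFIT2, IFIT3, OAS1, OAS2, OASL, MX1, ISG15 and TRIM22. Together the members took 0.0789% ± 0.00109 of human counts in palbociclib tumours and 0.0734% ± 0.00350 in vehicle tumours (SD, n = 3 each, two-sided exact permutation p = 0.1, the smallest that 3 against 3 allows). Mitochondrial counts were part of those totals. Without them the shares were 0.0800% ± 0.00131 and 0.0780% ± 0.000836 (SD, n = 3 each, exact permutation p = 0.2). The mean log2 CPM of the tested members was 3.26 ± 0.02 in palbociclib tumours and 3.27 ± 0.12 in vehicle tumours (SD, n = 3 each, exact permutation p = 0.9).

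**Figure D2:**
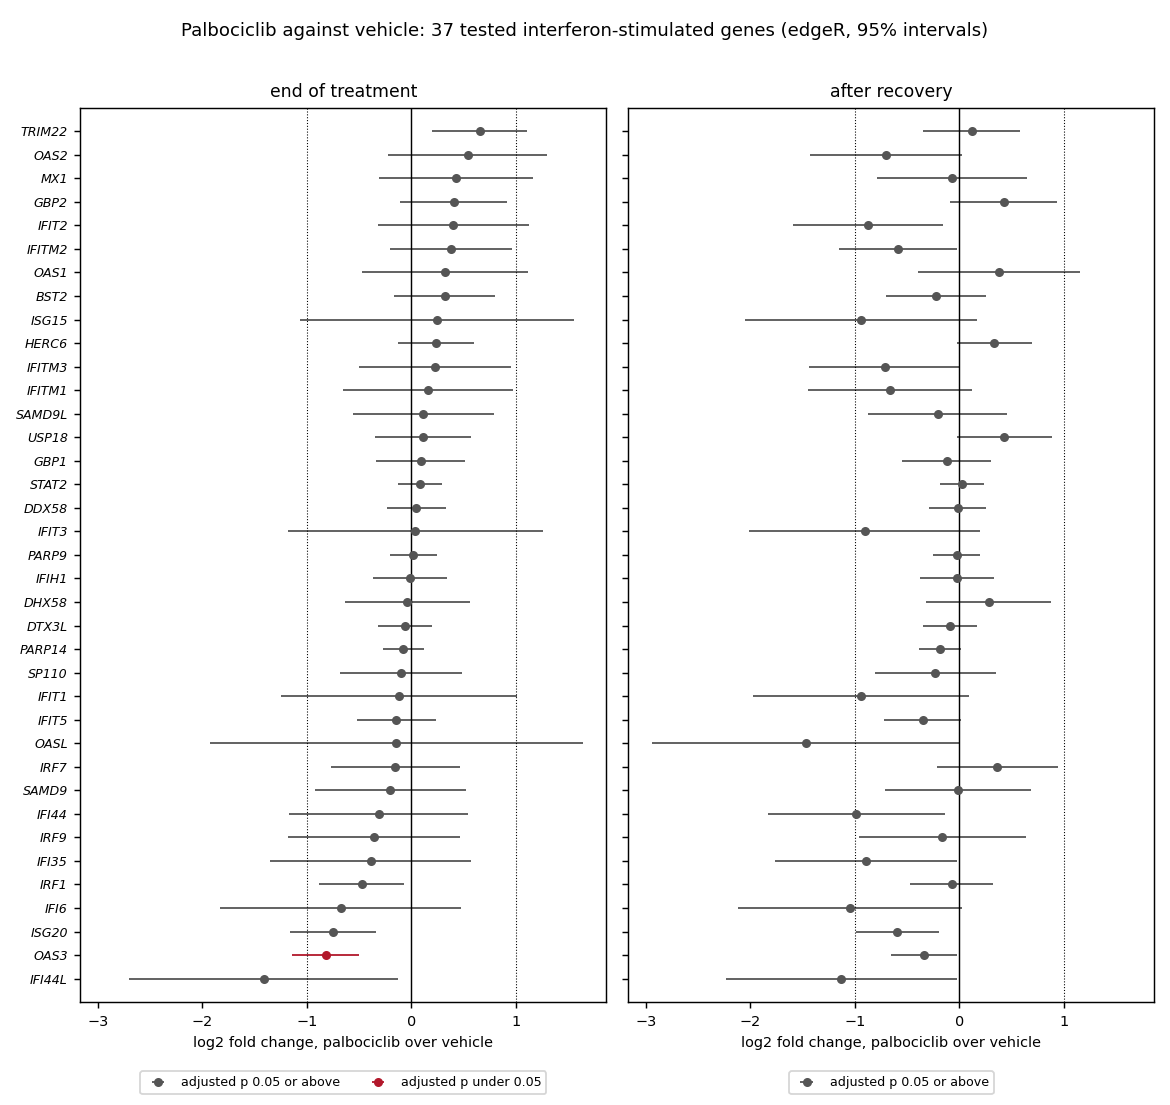
log2 fold change of palbociclib over vehicle for the 37 tested genes at the end of treatment (left) and after recovery (right), with 95% intervals from edgeR; dotted lines mark a doubling and a halving. OAS3 at the end of treatment, at -0.82, is the gene drawn as past the adjusted threshold, and after recovery 29 of the 37 points lie below 0.

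The RNA sensors overlapped between the groups. DDX58 had 21.3, 20.2 and 19.9 CPM in palbociclib tumours at the end of treatment, against 19.2, 17.1 and 23.3 CPM in vehicle tumours. The palbociclib values lay inside the vehicle range, with a log2 fold change of 0.05 ± 0.13 (SE, 95% interval -0.23 to 0.33). IFIH1 had 14.9, 14.9 and 14.3 CPM against 13.3, 13.6 and 17.9 CPM, again within the vehicle range, and a log2 fold change of -0.01 ± 0.17 (SE, interval -0.37 to 0.35). DHX58, the related helicase LGP2, was at -0.04 ± 0.28 (log2 fold change, SE).

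Among the transcription factors STAT2 was the most precisely measured. It had 120, 111 and 112 CPM in palbociclib tumours against 108, 104 and 111 CPM in vehicle tumours, overlapping groups, with a log2 fold change of 0.08 ± 0.10 (SE, interval -0.13 to 0.29). IRF9, its DNA-binding partner, had 2.23, 2.07 and 3.28 CPM in palbociclib tumours against 2.08, 5.02 and 2.69 CPM in vehicle tumours, with vehicle library 2 highest. Its log2 fold change was -0.35 ± 0.38 (SE), and 43.8% of its 50-base words also occur in the overlapping gene AL136295.5 or other genes, so its counts may be shared. IRF1 and IRF7, which induce interferons and effector genes, were at -0.48 ± 0.19 and -0.15 ± 0.29 (log2 fold change, SE), and neither passed.

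Of the oligoadenylate synthetases, OAS3 fell. These enzymes make a short signal molecule on binding double-stranded RNA, and that molecule activates the RNA-cutting enzyme RNase L. OAS3, on chromosome 12 from 112938352 to 112973249 of GRCh38, had 14.96, 14.8 and 15.5 CPM in palbociclib tumours against 25.2, 32.1 and 22.6 CPM in vehicle tumours. All 3 palbociclib values lay below all 3 vehicle values. The mean was 15.1 ± 0.400 CPM in palbociclib tumours and 26.7 ± 4.92 CPM in vehicle tumours (SD, n = 3 each), so that OAS3 fell by 0.82 ± 0.15 on the log2 scale (SE, edgeR adjusted p = 0.0094). The call was lost in 3 of 7 edgeR fits that left out 1 library, those without palbociclib library 1 or 3 or vehicle library 2 of the end of treatment, where the adjusted p reached 0.064 and the log2 fold changes over the 7 fits ran from -0.92 to -0.67.

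Other values moved with the same comparison as OAS3. The mouse share was 17.0%, 17.6% and 25.4% in the palbociclib libraries and 16.5%, 15.5% and 17.4% in the vehicle libraries. With that share as a covariate the OAS3 log2 fold change was -0.81 (edgeR adjusted p = 0.085). Without vehicle libraries 2 and 3, those with the high mitochondrial shares, the OAS3 log2 fold change was -0.74. That fit left vehicle library 1 alone in its group, so only its effect size is given. KRT5, a basal keratin among the epithelial markers, rose by 0.74 ± 0.17 on the log2 scale in the same comparison (SE, edgeR adjusted p = 0.040), and its part in the OAS3 value was not tested. The other 7 of the 8 epithelial markers did not pass. Over the 8 markers the median log2 fold change was 0.14, with 5 above 0 and 3 below. KRT5 passed in 1 of 7 edgeR fits that left out 1 library, losing the call without any of the 6 compared libraries. Its edgeR adjusted p was 0.26 with the mouse share as a covariate. Without vehicle libraries 2 and 3 its log2 fold change was 0.72. An antisense gene that overlaps OAS1, OAS2 and OAS3, AC004551.1, held 34 counts in all 12 libraries, beside 2954 counts for OAS3.

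None of the other synthetases passed. OAS1 had 32.0, 21.4 and 39.5 CPM in palbociclib tumours against 27.7, 17.2 and 29.4 CPM in vehicle tumours, overlapping groups with a log2 fold change of 0.32 ± 0.36 (SE). OAS2 had 6.41, 7.44 and 7.05 CPM against 5.72, 4.64 and 3.80 CPM, all 3 palbociclib values above all 3 vehicle values, but its log2 fold change of 0.54 ± 0.35 (SE) did not pass (edgeR adjusted p = 0.72). OASL, a related protein without the enzyme's activity, was at -0.15 ± 0.83 (log2 fold change, SE). The difference between OAS3 and its neighbours was not tested.

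**Figure D3:**
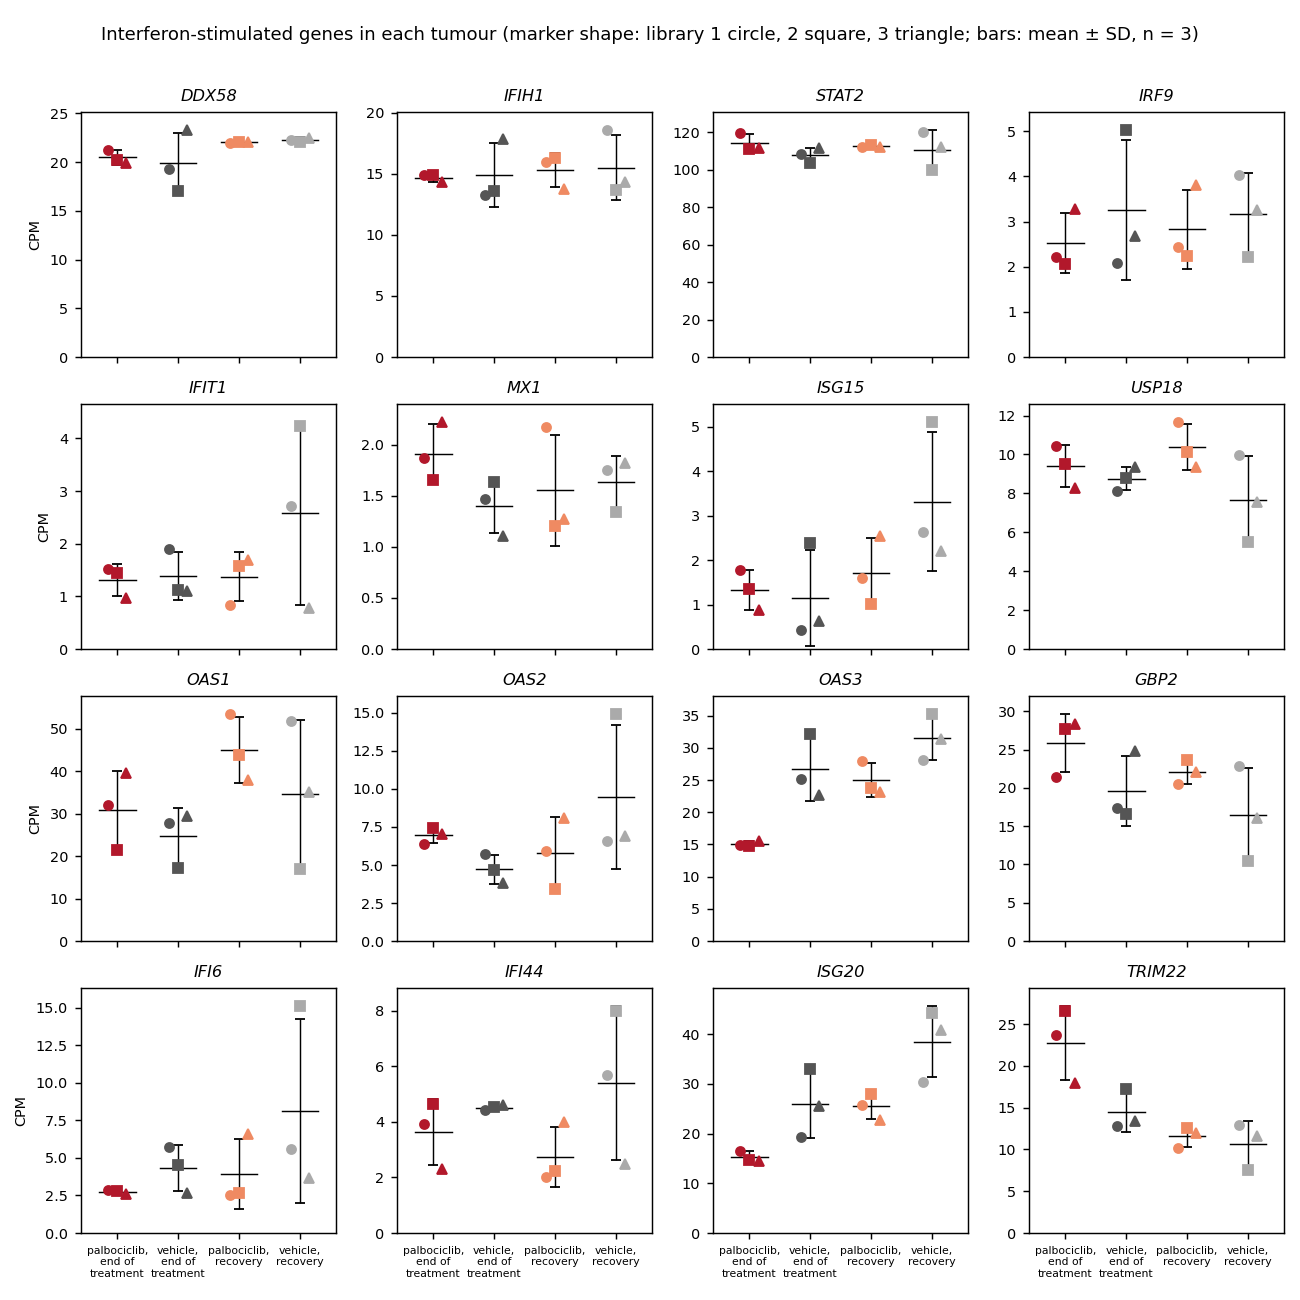
CPM of 16 interferon-stimulated genes in each tumour; points are single tumours, and bars give the mean and SD of 3. OAS3 lies at 14.8 to 15.5 CPM in the palbociclib tumours at the end of treatment, below every other tumour, and IFI6, IFIT1, ISG15 and OAS2 have their highest point in vehicle recovery library 2.

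Of the other effectors, ISG20 and TRIM22 came closest to a call. ISG20, an exonuclease that degrades single-stranded RNA, had 16.6, 14.8 and 14.6 CPM in palbociclib tumours against 19.3, 32.9 and 25.5 CPM in vehicle tumours. The groups did not overlap, and ISG20 stood at -0.75 ± 0.19 (log2 fold change, SE, edgeR adjusted p = 0.073). TRIM22, a ubiquitin ligase with antiviral activity, had 23.7, 26.6 and 18.0 CPM in palbociclib tumours against 12.7, 17.2 and 13.4 CPM in vehicle tumours. It too was apart, in the other direction, at 0.65 ± 0.21 (log2 fold change, SE, edgeR adjusted p = 0.20).

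In a fit of these 6 libraries alone both genes passed, ISG20 with an edgeR adjusted p of 0.027 and TRIM22 with one of 0.045. The strand setting of the counts is not known. TRIM22 overlaps 4 annotated genes, TRIM5 among them, 3 on its own strand and 1 on the opposite strand. Of its 50-base words 13.4% occur in other genes, with 9.63% in OR56B1. In all, 4 members were higher in every palbociclib tumour than in any vehicle tumour (OAS2, MX1, HERC6 and TRIM22) and 6 were lower (IRF1, OAS3, SAMD9, IFI35, IFI44L and ISG20). Over all tested genes these shares were 9.39% and 11.3%.

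Widely used readouts of interferon had few counts here. ISG15, a ubiquitin-like protein joined to other proteins during infection, had 1.78, 1.34 and 0.869 CPM in palbociclib tumours against 0.433, 2.39 and 0.633 CPM in vehicle tumours. The groups overlapped, and its log2 fold change of 0.25 ± 0.61 (SE) has a 95% interval from -1.06 to 1.56. IFIT1, which binds viral RNA ends that lack the host's cap marks, had 1.51, 1.45 and 0.965 CPM against 1.91, 1.13 and 1.11 CPM, with a log2 fold change of -0.12 ± 0.53 (SE). MX1 had 1.87, 1.65 and 2.22 CPM in palbociclib tumours against 1.47, 1.63 and 1.11 CPM in vehicle tumours, groups that lay just apart, and was at 0.43 ± 0.34 (log2 fold change, SE, edgeR adjusted p = 0.79). For these 3 genes, with 199 to 230 counts in all libraries together, the 95% interval held both no change and a doubling, so a rise of that size could not be told from none.

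Further named members were regulators or lay near the ends of the ranking. USP18, the protease that removes ISG15 and damps the receptor, had 10.4, 9.50 and 8.30 CPM in palbociclib tumours against 8.15, 8.79 and 9.33 CPM in vehicle tumours, overlapping groups at 0.11 ± 0.21 (log2 fold change, SE), and 23.4% of its 50-base words occur in other genes. GBP2, a guanylate-binding protein of host defence, had 21.5, 27.7 and 28.3 CPM against 17.3, 16.6 and 24.8 CPM and was at 0.41 ± 0.24 (log2 fold change, SE), and its groups overlapped. IFI6, an inhibitor of viral replication, had 2.85, 2.79 and 2.61 CPM in palbociclib tumours against 5.72, 4.52 and 2.69 CPM in vehicle tumours. Its groups overlapped by the lowest vehicle tumour, and its log2 fold change was -0.68 ± 0.53 (SE). IFI44 had 3.92, 4.65 and 2.32 CPM in palbociclib tumours against 4.42, 4.52 and 4.59 CPM in vehicle tumours and was at -0.31 ± 0.40 (log2 fold change, SE). The genes PARP9, DTX3L and PARP14, whose proteins act in DNA repair and antiviral signalling, had log2 fold changes between -0.08 and 0.02. PARP9 and DTX3L overlap on opposite strands of chromosome 3, between the DTX3L start at 122564238 and the PARP9 end at 122564577. Reads inside that stretch cannot be told apart without the strand setting. Of their 50-base words 1.33% (PARP9) and 4.41% (DTX3L) occur in other genes.

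Upstream of the members, no listed interferon ligand, receptor, JAK-STAT or sensing gene passed at the end of treatment. Of 22 interferon ligand genes 3 had enough counts to test, and none passed. IFNE, an interferon made constitutively by epithelium of the reproductive tract, held 1746 counts in the 12 libraries. It had 10.4, 10.8 and 9.75 CPM in palbociclib tumours against 11.96, 29.2 and 16.3 CPM in vehicle tumours, all 3 palbociclib values being lower, at -0.88 ± 0.36 (log2 fold change, SE, edgeR adjusted p = 0.42). IFNA1 held 232 counts, IFNK 91, IFNA8 16 and IFNW1 6 in the 12 libraries, and IFNA5, IFNA7, IFNB1 and IFNL3 held 1 each. The other 13 ligands, IFNG among them, were at 0. None of the 15 receptor and JAK-STAT genes passed, with IFNAR1, a chain of the type I receptor, at 0.20 ± 0.17 (log2 fold change, SE). None of 13 tested genes of nucleic acid sensing (of 16) and none of 7 tested genes of the response to interferon gamma (of 13) passed at the end of treatment. The DNA sensor gene CGAS came nearest, with 6.23, 7.13 and 6.66 CPM in palbociclib tumours against 9.97, 11.9 and 13.1 CPM in vehicle tumours, apart, at -0.80 ± 0.21 (log2 fold change, SE, edgeR adjusted p = 0.076).

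Of 7 DNA methylation genes, 2 fell with palbociclib at the end of treatment and 5 did not pass. UHRF1, the protein that brings DNMT1 to newly copied DNA, had 20.7, 22.0 and 17.0 CPM in palbociclib tumours against 51.9, 53.3 and 44.6 CPM in vehicle tumours, with no overlap. UHRF1 fell by 1.33 ± 0.15 on the log2 scale (SE, edgeR adjusted p = 0.00024), and it passed in 7 of 7 fits lacking 1 library each. DNMT1 had 79.1, 83.7 and 72.1 CPM in palbociclib tumours against 109, 120 and 113 CPM in vehicle tumours, also apart, and fell by 0.54 ± 0.10 on the log2 scale (SE, edgeR adjusted p = 0.011). DNMT1 passed in 4 of those 7 fits, and not in the ones without palbociclib library 1 or 3 or vehicle library 2 of the end of treatment. With the mouse share as a covariate its edgeR adjusted p was 0.11. Without vehicle libraries 2 and 3, which left vehicle library 1 alone in its group, its log2 fold change was -0.48. Transcripts of endogenous retroviruses were not analysed here.

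**Figure D4:**
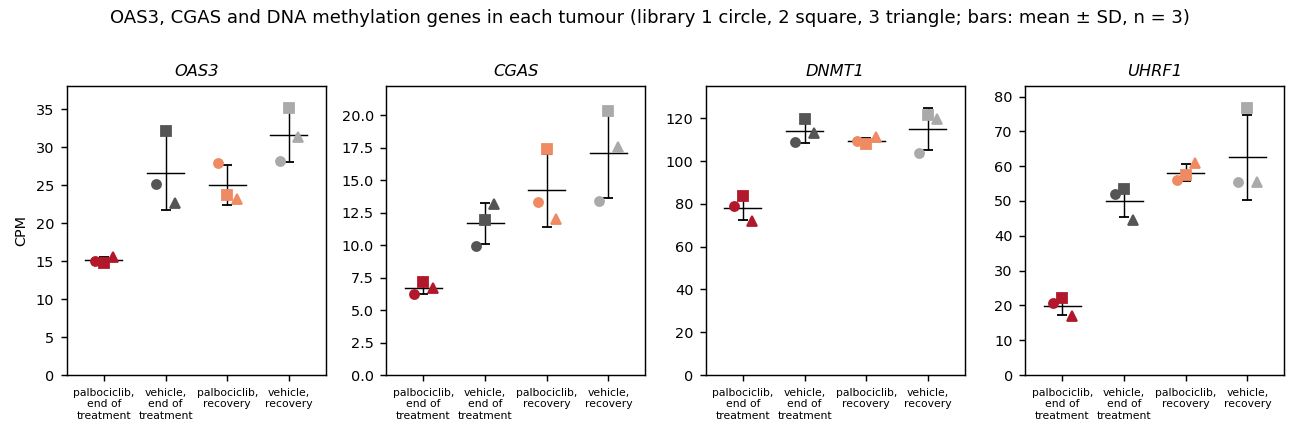
CPM of OAS3, of CGAS and of the DNA methylation genes DNMT1 and UHRF1 in each tumour, with the mean and SD of 3 as bars. In the palbociclib tumours at the end of treatment UHRF1 lies at 17.0 to 22.0 CPM, below the 44.6 to 53.3 CPM of the vehicle tumours, and after recovery the groups overlap.

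After recovery none of the 37 members passed in the comparison of palbociclib with vehicle, where 0.00537% of all tested genes passed. At an unadjusted p under 0.05 there were 7 of the 37 by edgeR, beside 8.65% of all tested genes. DESeq2 called 0 members, and edgeR without a filter on low counts called 3, IFI6, IFITM3 and ISG20, all lower. The median of the members was -0.21 on the log2 scale, beside -0.00 for all tested genes, with 8 members above 0 and 29 below. The upper end of the 95% interval lay under 1 on the log2 scale for 36 of the 37, the exception being OAS1. None of the members was higher in every palbociclib tumour (6.32% of all tested genes), and 5 were lower in every one (5.5% of all tested genes). Those 5 were IFIT2, IFITM2, OAS3, PARP14 and ISG20.

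The lean below 0 was smaller without vehicle recovery library 2. That library was the highest of the 12 for 18 of the 37 members and the lowest for 7. IFI6 had 2.51, 2.69 and 6.62 CPM in palbociclib recovery tumours against 5.60, 15.1 and 3.64 CPM in vehicle recovery tumours, of which library 2 was the 15.1 CPM. Its log2 fold change was -1.05 ± 0.49 (SE) with that library and -0.25 without it. ISG15 had 1.59, 1.02 and 2.55 CPM against 2.63, 5.10 and 2.21 CPM, and was at -0.94 ± 0.52 (log2 fold change, SE) with the library and -0.49 without it. IFITM3 had a log2 fold change of -0.10 without it and -0.72 over all libraries.

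Without vehicle recovery library 2 the members' median was -0.11 on the log2 scale, with 10 above 0 and 27 below, and 8 members changed sign. The same library held 70.9 CPM of 6 human fibroblast and pericyte markers, against 12.4 to 27.9 CPM in the other 11, of which 32.7 CPM were from COL1A2, a collagen chain. Its leukocyte marker sum of 21.2 CPM was the highest of the 12 and its endothelial sum of 51.9 CPM the lowest. Their part in the members' levels was not tested.

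**Figure D5:**
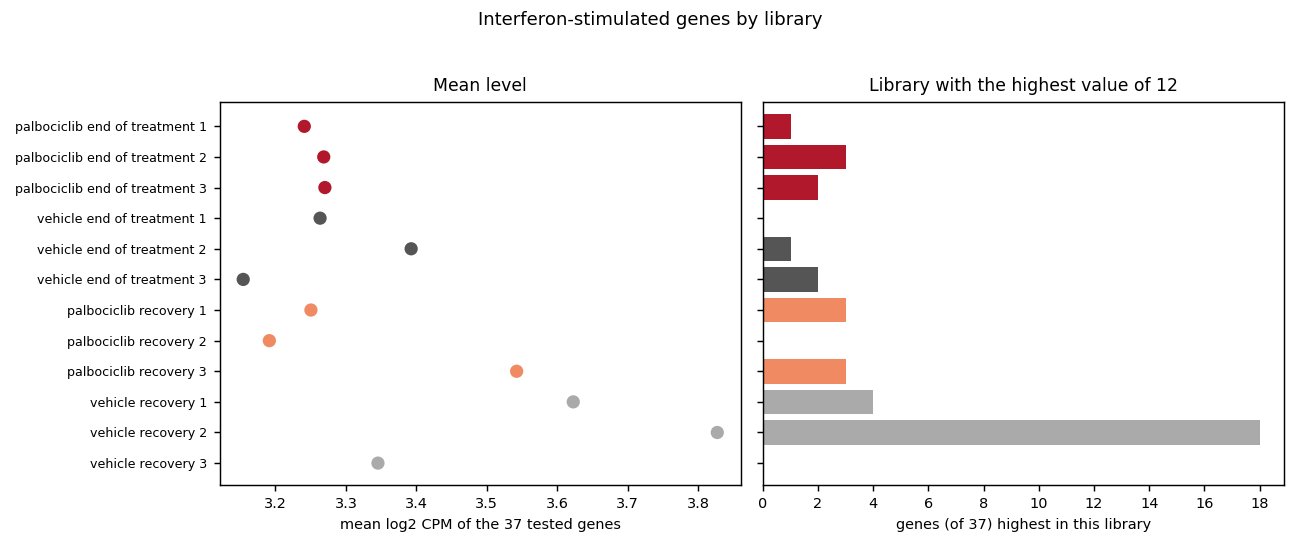
Left, mean log2 CPM of the 37 tested genes in each of the 12 libraries; right, the number of genes for which that library holds the highest value. Vehicle recovery library 2 holds the highest value for 18 of the 37 genes.

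OAS3, ISG20 and TRIM22 did not pass after recovery. OAS3 had 28.0, 23.8 and 23.2 CPM in palbociclib recovery tumours against 28.2, 35.2 and 31.4 CPM in vehicle recovery tumours. The groups lay apart by a narrow margin, and palbociclib recovery stood at -0.34 ± 0.15 (log2 fold change, SE, edgeR adjusted p = 0.57). ISG20 had 25.8, 27.9 and 22.8 CPM against 30.5, 44.1 and 40.7 CPM, again apart, and was at -0.59 ± 0.18 (log2 fold change, SE, edgeR adjusted p = 0.57). TRIM22 had 10.1, 12.5 and 11.97 CPM against 12.9, 7.50 and 11.6 CPM, overlapping, at 0.12 ± 0.22 (log2 fold change, SE).

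Other named members overlapped between the recovery groups. STAT2, DDX58 and IFIH1 were at 0.02 ± 0.10, -0.02 ± 0.13 and -0.02 ± 0.16 (log2 fold change, SE). Among the members with a mean log2 CPM of at least 1, the highest were USP18 at 0.43 ± 0.21, GBP2 at 0.43 ± 0.24 and OAS1 at 0.38 ± 0.35 (log2 fold change, SE). OAS1 ranged widely, with 53.4, 43.8 and 37.9 CPM in palbociclib recovery tumours against 51.8, 17.0 and 35.0 CPM in vehicle recovery tumours. The lowest of them beside IFI6 and ISG15 was IFI44 at -0.98 ± 0.39 (log2 fold change, SE). IFIT1, OAS2, IRF9 and MX1 were at -0.94 ± 0.48, -0.70 ± 0.34, -0.16 ± 0.37 and -0.07 ± 0.33 (log2 fold change, SE). The share of human counts on the members was 0.0789% ± 0.000876 in palbociclib recovery tumours and 0.0839% ± 0.00487 in vehicle recovery tumours (SD, n = 3 each, two-sided exact permutation p = 0.3).

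None of the 37 members passed the edgeR test of the difference between the effect after recovery and that at the end of treatment, which 0.22% of all tested genes passed. At an unadjusted p under 0.05 there were 4 members, beside 5.23% of all tested genes. DESeq2 called 0 members, and edgeR without a filter on low counts called 1, IFITM3. For OAS3 the difference was 0.48 ± 0.21 on the log2 scale (SE, edgeR adjusted p = 0.92), and for OAS2 -1.24 ± 0.49 (SE, edgeR adjusted p = 0.86). The TRIM22 difference was -0.54 ± 0.30 on the log2 scale (SE, edgeR adjusted p = 0.95). The members' median difference was -0.13 on the log2 scale, beside 0.01 for all tested genes.

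Within the palbociclib arm, recovery tumours were set against end-of-treatment tumours, a comparison that shares its end-of-treatment libraries with the first. OAS3 rose and TRIM22 fell, the only members of 37 to pass, where 2.82% of all tested genes passed, 2.36% higher and 0.467% lower. OAS3 had 28.0, 23.8 and 23.2 CPM in recovery tumours against 14.96, 14.8 and 15.5 CPM at the end of treatment, a rise of 0.73 ± 0.15 on the log2 scale (SE, edgeR adjusted p = 0.017). TRIM22 had 10.1, 12.5 and 11.97 CPM in recovery tumours against 23.7, 26.6 and 18.0 CPM at the end of treatment, and fell by 0.98 ± 0.21 on the log2 scale (SE, edgeR adjusted p = 0.023). In both genes the groups lay apart. Between the same stages of the vehicle arm, OAS3 was at 0.24 ± 0.15 and TRIM22 at -0.44 ± 0.22 (log2 fold change, SE, edgeR adjusted p = 0.43 and 0.36).

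Both calls depended on the libraries. OAS3 passed in 2 of 7 edgeR fits that left out 1 library, and its call was lost without any of the palbociclib libraries of the end of treatment and without recovery library 1 or 2. TRIM22 passed in 2 of 7, and its call was lost without end-of-treatment library 1 or 2 and without any palbociclib recovery library. The highest edgeR adjusted p over those fits was 0.10 for OAS3 and 0.12 for TRIM22. In all, 7 members were higher in every recovery tumour (14.9% of all tested genes) and 3 were lower (14.2%).

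Of the upstream genes 3 rose in palbociclib recovery tumours over palbociclib tumours at the end of treatment. CGAS had 13.3, 17.4 and 11.97 CPM in recovery tumours against 6.23, 7.13 and 6.66 CPM at the end of treatment, apart, at 1.09 ± 0.20 (log2 fold change, SE, edgeR adjusted p = 0.0082). Its call was lost without palbociclib library 1 of the end of treatment or palbociclib recovery library 2, where the edgeR adjusted p reached 0.061. In the vehicle arm CGAS was also higher in every recovery tumour, at 0.56 ± 0.20 (log2 fold change, SE, edgeR adjusted p = 0.32). For CGAS the palbociclib effect after recovery minus that at the end of treatment was 0.53 ± 0.28 (log2 scale, SE, edgeR adjusted p = 0.95). UHRF1 rose by 1.55 ± 0.15 and DNMT1 by 0.48 ± 0.10 (log2 fold change, SE, edgeR adjusted p = 7.2e-05 and 0.019), with UHRF1 passing in 7 and DNMT1 in 2 of 7 fits that left out 1 library. DNMT1 was lost without palbociclib library 1 or 3 of the end of treatment and without any palbociclib recovery library.

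Within the vehicle arm, none of the 37 members passed between recovery and the end of treatment, and 0% of all tested genes did, by edgeR. At an unadjusted p under 0.05 there were 8 members of the 37, beside 14.4% of all tested genes. DESeq2 called 0 members, and edgeR without a filter on low counts called 9, all higher. The members' median was 0.27 on the log2 scale, beside -0.00 for all tested genes, with 29 above 0 and 8 below. Without vehicle recovery library 2 the median was 0.17. The 3 members higher in every recovery tumour were IFITM2, OAS2 and SAMD9, and 6.71% of all tested genes were. None was lower in every recovery tumour, as 8.03% of all tested genes were.

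Within groups the members as a whole varied together little, and some families varied together more. Each log2 CPM was taken as its deviation from the mean of its group, so differences between groups do not enter. Over the 12 libraries the median Pearson correlation between members was 0.05 over 666 pairs. It was 0.12 without vehicle recovery library 2, beside -0.00 among all genes of like level. The IFITM family, 3 neighbouring genes of related sequence, had a median of 0.86, and 0.56 without that library. Between 32.0% and 35.2% of their 50-base words occur in other genes, and the part of shared reads in that correlation was not tested. The 4 genes of the IFIT family had a median of 0.39, and 0.24 without vehicle recovery library 2, with 0% to 7.91% of their 50-base words in other genes. IFIT1, IFIT2 and IFIT3, with 207, 314 and 304 counts, lie within the span of LIPA on the opposite strand. LIPA held 5457 counts in the 12 libraries, the strand setting is not known, and its part in their counts was not tested. The 4 genes of the OAS family had a median of -0.07. These correlations describe points that share libraries and depth, and they carry no test.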

How the data were processed

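RNA was measured in 12 tumours, and the deposited values are raw read counts per Ensembl gene, human and mouse genes together. Per the submitters' processing notes, the authors' tools included STAR, cutadapt, edgeR and CASAVA 1.8, and the builds were GRCm38 and GRCh38, with no roles given. How reads were counted, with which annotation and strand setting, and how reads matching both species were treated is not given in the sources consulted here, so antisense, overlapping and near-identical genes are uncertain. Rows that name no gene (37.0% to 69.1% of counts) were left out, and 713 repeated rows were removed.

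Human genes were tested in edgeR 4.0.16 (R 4.3.3) with TMM scaling, filterByExpr (minimum count 10, total 15) and a robust quasi-likelihood fit of 4 group means over 12 libraries. A gene passed when its p, adjusted over 18628 genes by the Benjamini-Hochberg method, was under 0.05. Standard errors and intervals were derived from the F statistics, and levels per kb from GENCODE 29 exon lengths. The biological coefficient of variation was 0.18. Steps were tested on simulated data. Replicate pairs differed by more than counting noise (chi-square per degree of freedom 4.07 to 53.2), so none was counted as a duplicate.

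The members and lists were chosen with earlier results of these data known. Named members were those past the threshold in any comparison, the 3 highest and 3 lowest fold changes of each palbociclib comparison with a mean log2 CPM of at least 1, and ISG15, IFIT1, MX1, OAS1, STAT2, IRF9, DDX58 and IFIH1. Alternatives were another scaling, DESeq2 1.42.0, other count filters, only the groups compared, the mouse share as covariate, and leaving out libraries. The share without mitochondrial counts was added after seeing the data.

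Some items are not reported here.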

Additional observations from a re-analysis of the deposited data

Results flagged for a closer look

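The effect of palbociclib on UHRF1, which recruits DNMT1 to copied DNA, differed between the stages. The difference, the effect after recovery minus that at the end of treatment, was 1.22 ± 0.21 on the log2 scale (SE, edgeR adjusted p = 0.027), and the sign was the same in all 12 fits that left out 1 library, although it passed in 2 of these 12, those without palbociclib library 2 of the end of treatment or vehicle recovery library 2. Without libraries 2 and 3 of vehicle at the end of treatment, which left library 1 alone in that group, the difference was 1.27 on the log2 scale. None of the 37 tested interferon-stimulated genes passed that edgeR test. At an unadjusted p under 0.05 there were 4, beside 5.23% of all tested genes.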

How the results depend on the processing

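No paired analysis was possible because the labels number no replicates, and the library numbers used here follow the order of listing and pair no tumours. Over fits that left out 1 library the 37 members' median ran from -0.02 to 0.05 at the end of treatment, -0.35 to -0.11 after recovery, -0.34 to -0.087 for the difference, -0.094 to 0.10 within palbociclib and 0.17 to 0.34 within vehicle. Members passing in those fits numbered 0 to 3 at the end of treatment and 0 to 3 within palbociclib, and 0 to 0 in the other comparisons; all genes passing numbered 159 to 748, 0 to 1, 12 to 161, 205 to 1425 and 0 to 6 (end of treatment, recovery, difference, within palbociclib, within vehicle). The members' correlation within groups was 0.12 without vehicle recovery library 2.

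In the same order, DESeq2 called 530 (64 higher, 466 lower), 20, 104, 824 and 83 genes, and 2 members at the end of treatment (ISG20 and OAS3), 3 within palbociclib (ISG20, OAS3 and TRIM22) and 0 in the others. Without a count filter edgeR called 753, 794, 320, 1147 and 1124 genes, and 2, 3, 1, 5 and 9 members. With the compared groups alone it called 689, 0 and 1617 genes (end of treatment, recovery, within palbociclib), and 3 and 4 members at the end of treatment and within palbociclib; for the difference this is the same fit. The mouse share as covariate gave 147 genes and 0 members at the end of treatment and 0 genes after recovery. Leaving out vehicle libraries 2 and 3 of the end of treatment gave 95 genes and 0 members there and 4 genes for the difference, with fewer samples. DESeq2's scaling in edgeR gave 1 gene within vehicle. Elsewhere the cause was not tested.

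Among the named members, signs turned only in comparisons in which the member had no call. At the end of treatment IFIH1 was at 0.0037 without a filter, 0.042 with the mouse share and 0.15 without vehicle libraries 2 and 3, IFIT1 at 0.075 with the mouse share, and IRF9 at 0.28 without those libraries; after recovery IFIH1 was at 0.051 with the mouse share. Over fits without 1 library, values at the end of treatment ran from -0.046 to 0.17 for DDX58, -0.090 to 0.13 for IFIH1, -0.25 to 0.23 for IFIT1, -0.62 to 0.11 for IRF9 and -0.22 to 1.37 for ISG15, and after recovery from -0.11 to 0.13 for IFIH1, -0.44 to 0.063 for IRF9, -0.39 to 0.078 for MX1, -0.047 to 0.083 for STAT2 and -0.086 to 0.28 for TRIM22. ISG15, IFIT1 and MX1 held 199 to 230 counts each over all libraries, and the 7 untested members at most 52; the parts of depth and of spread between tumours were not told apart.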

Other observations

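CXCL10, a chemokine induced by interferon gamma and by inflammation, was chosen here after its values were seen. It had 0.445, 0.207 and 0.772 CPM in palbociclib tumours at the end of treatment, against 1.91, 3.89 and 8.07 CPM in vehicle tumours, with no overlap. Its log2 fold change was -3.19 ± 1.30 (SE) and did not pass (edgeR adjusted p = 0.43). After recovery it had 11.7, 0.743 and 0.764 CPM in palbociclib tumours against 3.41, 11.9 and 2.08 CPM in vehicle tumours, and library 1 of the palbociclib group and library 2 of the vehicle group were the high ones.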
